A study of Homo sapiens with 4 samples.

Results

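Collagen becomes a load-bearing fibre only after a series of enzymes has worked on it, and 10 genes that encode such enzymes are described here in glioma cells given a microRNA. They are the lysyl oxidases LOX, LOXL1, LOXL2, LOXL3 and LOXL4, the catalytic subunits of collagen prolyl 4-hydroxylase P4HA1 and P4HA2, and the lysyl hydroxylases PLOD1, PLOD2 and PLOD3. The members were every probe set whose platform annotation named exactly 1 gene, that gene being on the list. This gave 18 probe sets for the 10 genes, of 41920 probe sets tested and 18304 genes in all. All 18 were kept, and no filter on low values was applied.

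RNA came from the human glioma line U87, depleted of the RNA-binding protein QK (gene QKI) by knockdown in all 4 samples. In 2 samples the cells had been transduced with miR-20a, and in the other 2 with miR-NT, a scrambled microRNA that served as the non-targeting control. No array of U87 cells without the QK knockdown was analysed here, so every comparison is between QK-depleted cells, and neither the knockdown method nor the time after transduction is given in the sources used here. There was 1 single-colour array a sample, read as log2 probe-set levels, so a difference of 1 unit is a doubling, and with so few arrays the precision is low. Separate cultures are not mentioned in the labels, and p-values here then reflect only the spread between these RNA samples, which may be technical.

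Prolyl 4-hydroxylases act in the endoplasmic reticulum and hydroxylate prolines of the nascent collagen chain, which lets the triple helix stay folded at body temperature. Lysyl hydroxylases modify lysines of the same chains, in the helix and, for the PLOD2 product, mainly in the telopeptides at the chain ends. Outside the cell, lysyl oxidases, which need copper, oxidize lysines and hydroxylysines of collagen and lysines of elastin to aldehydes that then condense into cross-links. The hydroxylases need oxygen, iron, 2-oxoglutarate and ascorbate, and LOX, P4HA1, P4HA2 and PLOD2 are known targets of the hypoxia-inducible factors, while LOX is also known as a TGF-beta response gene.

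The agent that separates the groups is shown first, because it is the only labelled difference between them. The labels do not name an arm of miR-20a. The mature 5p arm in RefSeq (GRCh38.p14), which carries the seed of the miR-17 family, is given with that seed, bases 2 to 8, in capitals.
hsa-miR-20a-5p: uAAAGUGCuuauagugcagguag

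The upstream windows of 4 members are shown next because their genes are known targets of hypoxia-inducible factors, and because their probe sets differed in how far they moved. Each is the 250 bases before the most upstream start with a RefSeq window for the gene. All 4 are on the minus strand of GRCh38.p14 and are printed 5′ to 3′ along the gene. For LOX, PLOD2 and P4HA1 this window adjoins the RefSeq span of the gene. The P4HA2 window lies inside that span, which runs on to 132227853, so bases upstream of the whole gene were not read. Capitals mark ACGTG or GCGTG on either strand, the core letters of a hypoxia response element.
LOX, chr5:122078260-122078509: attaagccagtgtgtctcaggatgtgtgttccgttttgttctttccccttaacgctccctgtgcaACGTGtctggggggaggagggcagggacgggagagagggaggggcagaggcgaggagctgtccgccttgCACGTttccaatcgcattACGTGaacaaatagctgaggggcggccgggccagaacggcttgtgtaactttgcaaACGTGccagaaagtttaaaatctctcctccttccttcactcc
P4HA2, chr5:132227092-132227341: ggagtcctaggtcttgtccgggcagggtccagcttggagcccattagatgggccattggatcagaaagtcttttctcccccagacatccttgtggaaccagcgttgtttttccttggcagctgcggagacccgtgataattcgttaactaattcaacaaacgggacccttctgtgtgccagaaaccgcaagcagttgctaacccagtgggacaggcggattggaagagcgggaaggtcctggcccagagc
PLOD2, chr3:146161185-146161434: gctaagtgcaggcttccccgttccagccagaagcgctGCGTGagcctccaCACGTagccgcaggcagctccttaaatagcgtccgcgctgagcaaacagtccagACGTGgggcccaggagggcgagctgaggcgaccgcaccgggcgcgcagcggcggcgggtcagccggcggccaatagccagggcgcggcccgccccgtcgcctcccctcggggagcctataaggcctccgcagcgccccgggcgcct
P4HA1, chr10:73096867-73097116: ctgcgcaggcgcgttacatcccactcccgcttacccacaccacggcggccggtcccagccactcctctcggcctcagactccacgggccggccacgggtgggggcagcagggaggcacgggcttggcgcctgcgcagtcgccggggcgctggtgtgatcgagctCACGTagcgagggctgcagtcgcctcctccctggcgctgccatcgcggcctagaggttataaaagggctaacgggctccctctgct

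The LOX window held ACGTG at 4 places, which began 42, 98, 116 and 185 bases before the start. The windows of the 2 other RefSeq starts of LOX, which lie further downstream and are not printed, held ACGTG at 1 place each and GCGTG at 1 place each. Of all 35116 windows of this length in the RefSeq table, some of which overlap, 18.5% held ACGTG on either strand and 0.669% held it at 4 or more places. The PLOD2 window held ACGTG 146 and 200 bases before the start and GCGTG, found in 32.2% of all windows, 213 bases before it. The P4HA1 window held ACGTG 86 bases before the start, and the P4HA2 window, which lies inside the gene, held neither motif. Among the members whose windows are not printed, PLOD1 held GCGTG 25 and 68 bases before its start. The most upstream windows used for LOXL1, LOXL3, LOXL4 and PLOD3 held neither motif. That of LOXL3, like that of P4HA2, lies inside its gene. The other LOXL3 window, further downstream, held GCGTG 246 bases before its start. CAGAC, the core letters of a SMAD-binding element, lay in the most upstream windows of LOX, PLOD2, P4HA1, P4HA2 and LOXL1, as it did in 38.0% of all windows. These matches describe the letters of the windows only. The windows of 9 of the 10 members were matched, LOXL2 being the exception.

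LOX, the founding lysyl oxidase, was higher in miR-20a cells by all 3 of its probe sets, by 1.51-fold to 1.77-fold. LOXL3, P4HA2 and 1 of the PLOD2 probe sets were also higher, between 1.38-fold and 1.49-fold, with p-values that did not pass after adjustment. PLOD1 was the only member with both miR-20a arrays below both miR-NT arrays, at 1.17-fold lower, and it did not pass either. LOXL1, LOXL4, P4HA1 and PLOD3 had differences of at most 0.14 log2 units. Of the 18 member probe sets 2 passed limma's test, both of LOX, at a Benjamini-Hochberg adjusted p under 0.05 over all probe sets, against 0.136% of all probe sets (0.119% higher and 0.0167% lower). With each gene represented by its highest probe set, LOX was the 1 member of 10 that passed (limma adjusted p = 0.025), against 0.426% of genes.

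**Figure D1:**
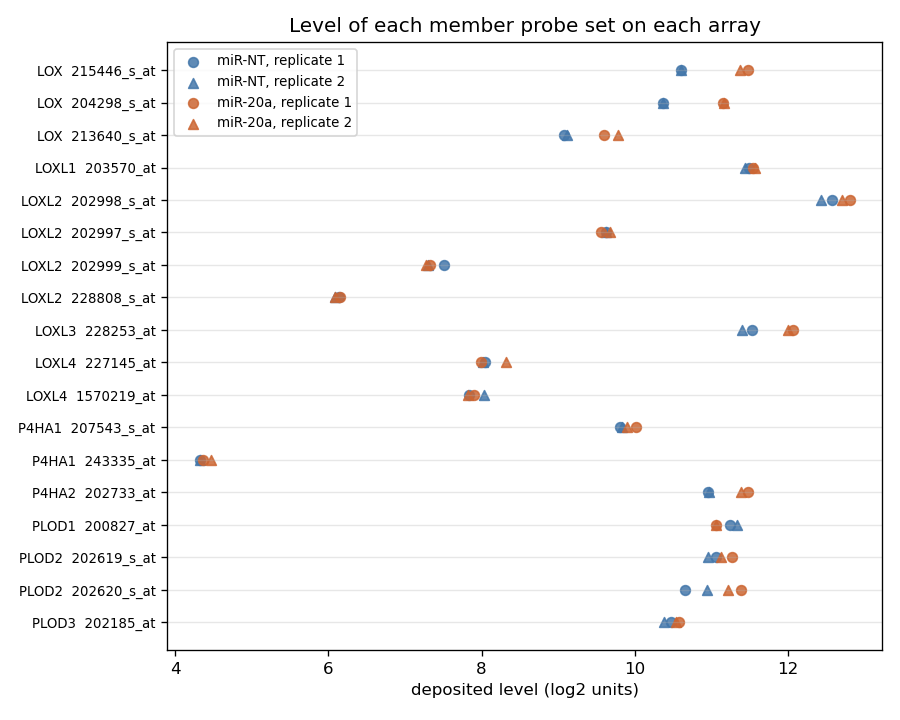
Deposited level in log2 units (horizontal axis) of each of the 18 member probe sets (rows) on each of the 4 arrays, with miR-NT in blue, miR-20a in orange, circles for replicate 1 and triangles for replicate 2. The 3 LOX probe sets, LOXL3 and P4HA2 show orange points well to the right of the blue ones, and PLOD1 shows them to the left; levels of different probe sets are not comparable with each other.

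By probe set 215446_s_at, LOX stood at 10.60 and 10.60 log2 units in miR-NT cells and at 11.47 and 11.37 in miR-20a cells. The replicates lay close together in each group, and the groups were separated by a gap of 0.77. The change was 0.82 ± 0.09 log2 units (SE, limma adjusted p = 0.043), or 1.77-fold. By 204298_s_at, LOX stood at 10.37 and 10.36 against 11.15 and 11.16. This was the tightest of the LOX probe sets, and its change was 0.79 ± 0.09 (SE, limma adjusted p = 0.043), or 1.73-fold. By 213640_s_at, LOX stood at 9.08 and 9.11 against 9.60 and 9.78, a change of 0.59 ± 0.10 (SE, limma adjusted p = 0.115). This probe set moved less and missed the threshold, and without miR-20a replicate 1 its change was 0.68, still below those of the other 2.

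The 2 LOX calls held under median centring of the arrays, with changes of 0.85 and 0.82 (limma adjusted p = 0.0333 and 0.0325), but not under the other 2 scalings. After quantile normalization the changes of 215446_s_at and 204298_s_at were 0.66 and 0.64 with limma adjusted p-values of 0.062 and 0.063, and after cyclic loess the p was 0.061 for each. Both passed when the lower 40% of probe sets by level were dropped (limma adjusted p = 0.014 for each). They also passed when moderation was robust and followed the mean level (0.0030 and 0.0026), but not with a replicate block (0.358 for each). The remaining probe set, 213640_s_at, passed in the first 2 of these settings (limma adjusted p = 0.045 and 0.024) and not with the block (0.358). When 1 of the 4 arrays was left out, the changes of the 2 called probe sets, 215446_s_at and 204298_s_at, were between 0.77 and 0.87, and neither passed. Such a fit has 1 array in a group and assumes that it varies like the other group, and without either miR-NT array 0 of the 41920 probe sets passed.

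Among the 4 LOX-like genes, LOXL3 moved furthest. LOXL3, a lysyl oxidase with scavenger receptor domains, stood by its only probe set at 11.52 and 11.40 log2 units in miR-NT cells and at 12.06 and 12.00 in miR-20a cells. Both miR-20a arrays lay 0.48 or more above both miR-NT arrays. The change was 0.57 ± 0.09 (SE, limma adjusted p = 0.110), or 1.49-fold, which did not pass. It was 0.42 after quantile normalization (limma adjusted p = 0.15), 0.43 after cyclic loess (0.152) and 0.61 after median centring (0.085), and had an adjusted p of 0.358 with a replicate block and between 0.111 and 0.638 when 1 array was left out. It passed when the lower 40% of probe sets by level were dropped (limma adjusted p = 0.042), when moderation was robust and followed the mean level (0.015), and with probe sets averaged by gene (0.041).

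LOXL1, the lysyl oxidase needed for elastic fibre upkeep, stood at 11.49 and 11.44 log2 units in miR-NT cells and 11.54 and 11.57 in miR-20a cells. The groups were apart by only 0.05. The change was 0.09 with a 95% interval from -0.12 to 0.30, and quantile normalization turned it to -0.057 and cyclic loess to -0.050. LOXL4 had 2 probe sets of opposite sign, 227145_at at 0.11 (95% interval -0.18 to 0.41) and 1570219_at at -0.07 (-0.32 to 0.18), and the arrays of the groups overlapped in both. By 227145_at, miR-20a replicate 2 stood at 8.31 log2 units against 7.99 on replicate 1, and without it the change was -0.048.

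LOXL2, a lysyl oxidase that also acts on collagen IV of basement membranes, was read by 4 probe sets that did not move together. By 202998_s_at, LOXL2 stood at 12.57 and 12.43 log2 units in miR-NT cells and 12.80 and 12.70 in miR-20a cells. That is a change of 0.25 ± 0.10 (SE) with an adjusted p of 0.252 by limma, which was 0.13 after quantile normalization. The other 3 probe sets had changes of -0.0011 (202997_s_at), -0.11 (202999_s_at) and 0.0091 (228808_s_at), and the arrays of the groups overlapped in each.

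**Figure D2:**
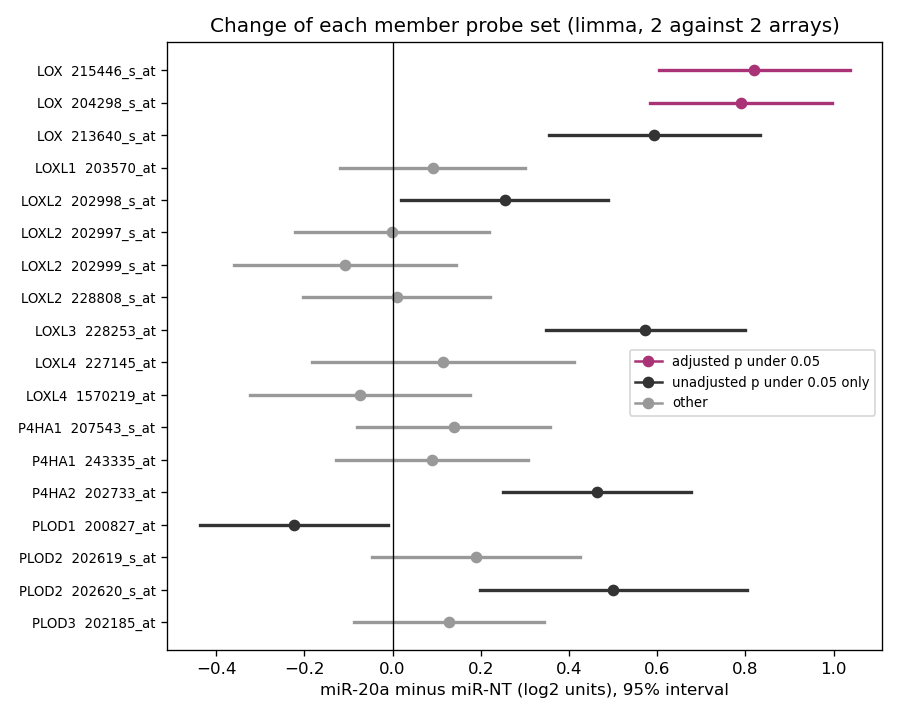
Difference between miR-20a and miR-NT arrays in log2 units (horizontal axis) for each of the 18 member probe sets (rows), as limma estimate (point) with its 95% interval (line), 2 arrays in each group. Purple marks the 2 LOX probe sets past an adjusted p of 0.05, black the 6 others with an unadjusted p under 0.05 and grey the remaining 10; the PLOD1 interval is the only one wholly below 0.

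The prolyl 4-hydroxylase subunits differed in how far they moved. P4HA2, which with its partner P4HB forms the type II enzyme, stood at 10.96 and 10.97 log2 units in miR-NT cells and at 11.47 and 11.39 in miR-20a cells. The replicates of each group lay within 0.09 of each other and the groups were 0.42 apart. The change was 0.46 ± 0.09 (SE, limma adjusted p = 0.133), or 1.38-fold, and passed only under the robust moderation that follows the mean level (adjusted p = 0.024 by limma) among the settings tried. After quantile normalization it was 0.30. P4HA1, the subunit of the type I enzyme, stood at 9.80 and 9.83 against 10.01 and 9.90 by 207543_s_at. Its change was 0.14 with a 95% interval from -0.08 to 0.36, and 0.023 after quantile normalization. Its other probe set, 243335_at, had low values on every array, 4.32 and 4.32 against 4.36 and 4.47.

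Of the lysyl hydroxylases, 0 of 4 probe sets passed, and 3 changes were positive and 1 negative. PLOD2, which makes lysyl hydroxylase 2, stood at 10.65 and 10.95 log2 units in miR-NT cells and 11.38 and 11.22 in miR-20a cells by 202620_s_at. Its miR-NT arrays were the most spread of the 18 probe sets in that group, with an SD of 0.21. The change was 0.50 ± 0.13 (SE, limma adjusted p = 0.154), or 1.42-fold. By 202619_s_at, PLOD2 stood at 11.06 and 10.95 against 11.26 and 11.13, and the change was only 0.19 ± 0.10 (SE, limma adjusted p = 0.365). Both probe sets had both miR-20a arrays above both miR-NT arrays, by 0.27 and 0.07. Quantile normalization lowered the changes to 0.35 and 0.027.

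PLOD1, lysyl hydroxylase 1, which acts on lysines of the collagen helix, stood at 11.24 and 11.33 log2 units in miR-NT cells and 11.06 and 11.06 in miR-20a cells. Both miR-20a arrays lay 0.18 or more below both miR-NT arrays. The change was -0.22 ± 0.09 (SE, limma adjusted p = 0.263), with a 95% interval from -0.44 to -0.01, and it was negative under every setting tried, from -0.38 after quantile normalization to -0.18 without miR-NT replicate 2. PLOD3, which also carries glycosyltransferase activity, stood at 10.47 and 10.38 against 10.57 and 10.54. Its change of 0.13 had a 95% interval from -0.09 to 0.34 and turned to -0.016 after quantile normalization.

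Family members were also set against each other within an array, as the difference between their highest probe sets relative to its miR-NT mean. These values are a description, and no test was made of them. For LOX against LOXL1 the difference was 0.79 and 0.67 log2 units on the miR-20a arrays, while the miR-NT arrays lay 0.02 to either side of their mean. LOX against LOXL2 was at 0.57 on each miR-20a array, LOX against LOXL3 at 0.27 and 0.23, and LOX against LOXL4 at 0.92 and 0.49, the least even of these pairs. P4HA2 against P4HA1 was at 0.31 and 0.34, where the miR-NT arrays differed from their mean by 0.01. PLOD2 against PLOD1 was at 0.48 and 0.35 and PLOD3 against PLOD1 at 0.37 and 0.34, where the miR-NT arrays differed from their means by 0.10 and 0.09. PLOD2 against PLOD3 was at 0.11 and 0.01, the latter hardly above the miR-NT values of 0.01 and -0.01. In these pairs PLOD2 was read by 202619_s_at, with a change of 0.19, and not by 202620_s_at, with 0.50. LOXL2 was read by 202998_s_at, whose change of 0.25 was the largest of its probe sets. Pairs with the other probe sets were not computed.

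As a group, 14 of the 18 member probe sets had a positive and 4 a negative change, with a median of 0.13 against -0.02 over all probe sets. At an unadjusted p under 0.05 (limma) 7 were higher, against 9.46% of all probe sets, and 1 was lower, against 8.40%. The 7 belong to 5 genes, LOX, LOXL2, LOXL3, P4HA2 and PLOD2. The arrays of the groups did not overlap for 12 higher member probe sets, against 21.7% of all, and for 1 lower, against 27.2%.

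Part of this background depends on the level, since brighter probe sets were more often higher in miR-20a cells. Of the 18, 12 lay in the brightest 10% of all probe sets by mean level, at 9.45 log2 units or more. In that range 31.8% of all 4193 probe sets were higher at an unadjusted p under 0.05 (limma) and 6.25% lower, with a median change of 0.12. Of the 12 members there, 6 were higher and 1 was lower, with a median of 0.22. The part of the level in the member changes was not tested beyond the quantile and cyclic loess settings.

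The other genes of the pathway were read against the same background. Of 15 measured genes for partners of collagen folding and modification, with 32 probe sets, 0 passed limma's test over all probe sets. At an unadjusted p under 0.05 (limma), 9 of these probe sets were higher, against 9.46% of all probe sets, and 3 lower, against 8.40%. In the brightest 10% of all probe sets by mean level these shares were 31.8% and 6.25%. The median change of the list was 0.09. P4HB, the protein disulfide isomerase that is the second subunit of prolyl 4-hydroxylase, had changes of -0.47, -0.23 and -0.06 by its 3 probe sets. By 1564494_s_at, P4HB stood at 11.64 and 11.53 log2 units in miR-NT cells and 11.11 and 11.12 in miR-20a cells (limma adjusted p = 0.135). TMEM38B, an ion channel of the endoplasmic reticulum, had changes of 0.62, 0.53 and 0.30. PPIB, the prolyl isomerase cyclophilin B, had changes of 0.37 and 0.30.

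Of 13 genes for processing of procollagen and of the lysyl oxidase precursor, with 33 probe sets, 0 passed over all probe sets by limma. At an unadjusted p under 0.05 (limma), 2 probe sets were higher, against 9.46% of all probe sets, and 6 lower, against 8.40%. The median change was -0.06. PCOLCE, which enhances removal of the procollagen C-propeptide, stood at 11.41 and 11.37 log2 units against 10.99 and 10.91, a change of -0.44 ± 0.09 (SE, limma adjusted p = 0.136). FN1, fibronectin, had its strongest change at -0.45 ± 0.11 (SE) by 214701_s_at (limma adjusted p = 0.153). Its other probe sets had smaller changes of -0.26, -0.25, -0.22, -0.20, -0.20 and 0.01. EFEMP2, fibulin-4, which brings LOX to tropoelastin, had changes of 0.30 and -0.0015 by its 2 probe sets.

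Of 16 substrate genes, with 49 probe sets, 1 probe set rose past the threshold and 0 fell by limma. Over all probe sets the shares were 0.119% and 0.0167%. Unadjusted p-values under 0.05 (limma) were found for 16 higher probe sets, against 9.46% of all, and 7 lower, against 8.40%. Among the brightest 10% of all probe sets by mean level, 31.8% were higher and 6.25% lower at that cut-off. The part of the level in the substrate counts was not tested. COL5A2, a chain of the fibril-forming collagen V, rose by 0.97 ± 0.10 (SE, limma adjusted p = 0.035), from 9.06 and 8.96 to 10.04 and 9.91 log2 units by 221730_at. Its other probe set, 221729_at, changed by 0.60 ± 0.15 (SE), short of the threshold (limma adjusted p = 0.148). The call for COL5A2 was lost with a replicate block, and also without miR-NT replicate 1, without miR-NT replicate 2 and without miR-20a replicate 1. With 1 probe set a gene, 221729_at stood for COL5A2, and the only call in the pathway lists was of COL1A1. The next smallest p-values in this list, looked up after the values were seen, were those of COL1A1, a chain of collagen I, at 0.76 by 1556499_s_at (limma adjusted p = 0.078), COL4A2, a chain of the basement membrane collagen IV, at 0.52 (0.124), and COL6A2, a chain of the microfibrillar collagen VI, at -0.57 (0.129). The other 4 probe sets of COL1A1 ranged from -0.48 to 0.44, so its probe sets did not share a sign.

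Of 19 measured genes of cofactor supply and oxygen sensing, with 45 probe sets, 0 passed over all probe sets by limma, and the median change was -0.02. By an unadjusted p below 0.05 (limma) 6 were higher, against 9.46% of all probe sets, and 7 lower, against 8.40%. EPAS1, the hypoxia-inducible factor HIF-2 alpha, stood at 8.68 and 8.61 log2 units in miR-NT cells against 7.80 and 8.07 by 200879_s_at. The change was -0.71 ± 0.11 (SE, limma adjusted p = 0.108), and its 2 other probe sets stood at -0.33 and -0.09. VEGFA, a hypoxia-induced growth factor, had changes of -0.43, -0.35, -0.26 and 0.06. SLC31A1, the copper importer of the plasma membrane, had changes of 0.47, -0.22 and 0.04 by its 3 probe sets. The 6 higher probe sets counted above were of SLC31A1, EGLN1, ADM, BNIP3 and HIF1A, and the 7 lower of EPAS1, VEGFA, VHL and NDRG1.

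**Figure D3:**
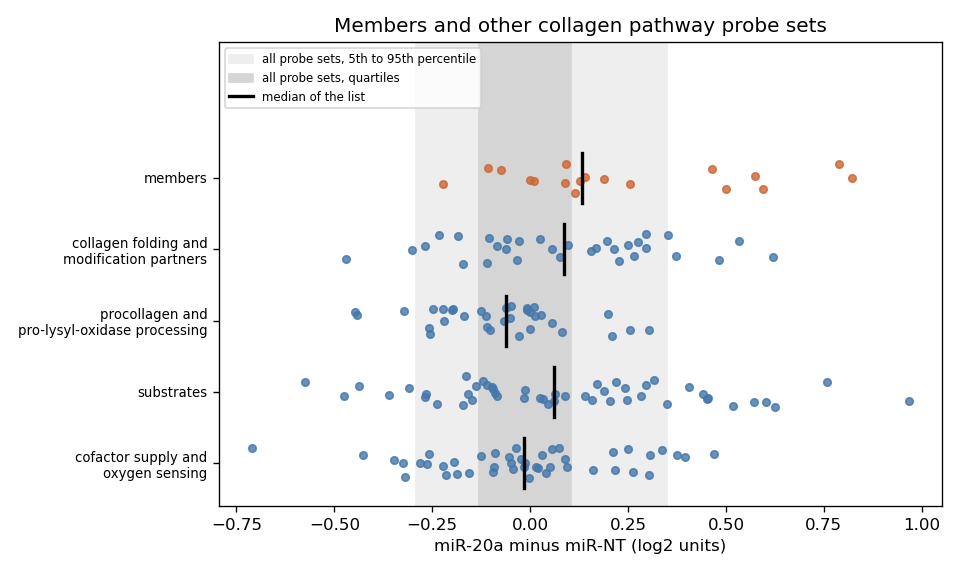
Difference between miR-20a and miR-NT arrays in log2 units (horizontal axis) for the 18 member probe sets (orange) and the probe sets of 4 lists of other pathway genes (blue), 1 point each with random vertical scatter. Black bars are medians, from 0.13 for the members to -0.06 for the processing genes, and the grey bands are the quartiles and the 5th to 95th percentiles of all 41920 probe sets (-0.29 to 0.35).

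Array-wide values that moved with the groups are given once for all results above. For ACTB, the 3′ control probe set exceeded the 5′ one, a sign of RNA quality, by 0.20 and 0.35 log2 units in miR-NT cells against 0.52 and 0.46 in miR-20a cells, and for GAPDH by 0.22 and 0.22 against 0.27 and 0.28. The SD of levels over probe sets was 1.845 and 1.85 in the miR-NT group, against 1.904 and 1.89 in the miR-20a group. The part of these in the member results was not tested. QKI, the knocked-down gene of all 4 samples, had 10 probe sets with changes between -0.43 and 0.18, and 0 of them passed (limma adjusted p = 0.168 or more).

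The identity of the cells was read from markers. Of the 38 probe sets of 9 glioma and mesenchymal markers, 0 rose and 2 fell past the threshold (limma), both of CHI3L1, the secreted glycoprotein YKL-40. CHI3L1 stood at 13.49 and 13.51 log2 units in miR-NT cells and 12.44 and 12.32 in miR-20a cells by 209396_s_at, a change of -1.12 ± 0.09 (SE, limma adjusted p = 0.024), and its change was -1.14 ± 0.10 (SE, limma adjusted p = 0.025) by 209395_at. Its remaining probe set, 216546_s_at, changed by only -0.18 (limma adjusted p = 0.479), and the arrays of the groups overlapped. Both calls were lost with a replicate block (0.358) and without miR-NT replicate 1 (0.377) or 2 (0.304). At an unadjusted p under 0.05 (limma), 0 of the 38 were higher, against 9.46% of all probe sets. At the same cut-off 7 were lower, of CHI3L1, FN1 and NES, against 8.4% of all. The mean level over the list was 8.76 and 8.74 log2 units in miR-NT cells and 8.61 and 8.57 in miR-20a cells. The part of these marker values in the member results was not tested. VIM, the mesenchymal filament vimentin, stood between 14.63 and 14.70 log2 units on all 4 arrays by 201426_s_at. GFAP, the astrocyte filament, had group means between 5.42 and 7.13 over its 3 probe sets, and the values carry no detection calls, so its presence could not be told from background. Fibroblasts also express lysyl oxidases, and the mean over the 15 probe sets of 4 fibroblast markers was 6.31 and 6.32 log2 units in miR-NT cells and 6.18 and 6.26 in miR-20a cells. Of these 15 probe sets 4 had a positive and 11 a negative change, and 0 passed (limma). The 2 arrays of miR-20a lay above both miR-NT arrays by 2 of them, LUM 201744_s_at at 0.56 and COL3A1 215076_s_at at 0.20, against 21.7% of all probe sets. They lay below by 4, all of DCN, against 27.2% of all probe sets. The labels name no cells other than U87, and the part of fibroblast RNA in the LOX values was not tested. The mean over marker probe sets of epithelial cells was 5.57 to 5.65 on the 4 arrays, that of blood cells 5.08 to 5.12 and that of endothelial cells 5.95 to 6.02. In bulk RNA, fewer cells of a type and less RNA per cell cannot be told apart.

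**Figure D4:**
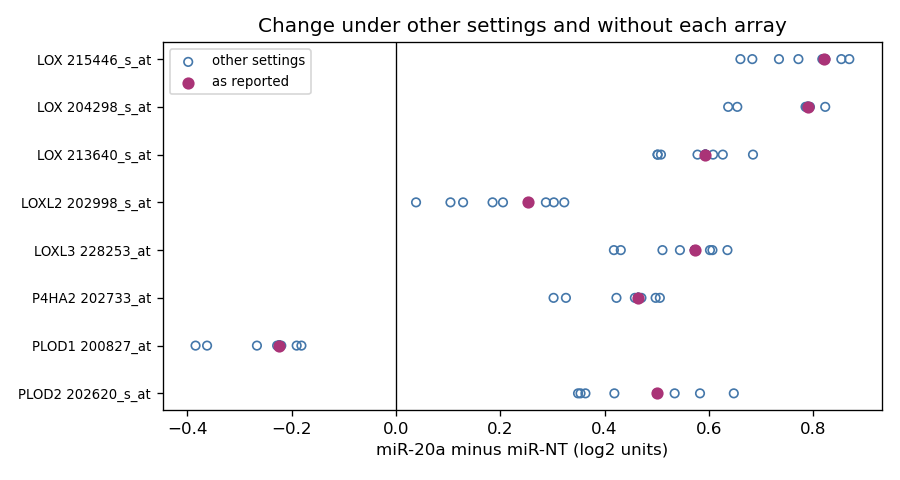
Difference between miR-20a and miR-NT arrays in log2 units (horizontal axis) for 8 member probe sets (rows), as reported (filled purple) and under each other setting or without each array (open blue). The 8 are those with an unadjusted p under 0.05; the values of the 3 LOX probe sets lie between 0.50 and 0.87 and those of PLOD1 between -0.38 and -0.18, and no sign changed among these 8.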

How the data were processed

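Deposited log2 probe-set levels of 4 arrays were used as the authors gave them; affy, an R package, is named in the submitters' processing notes, but how backgrounds were corrected and arrays normalized is not stated in the sources used. A log2 base was inferred from the range, 3.447 to 15.07. Per the labels' protocols, 6 µg of total RNA gave the biotinylated cRNA. Gene names came from GEO's platform annotation: of 41920 non-control probe sets, 37465 named 1 gene, 1727 several and 2728 none. The table's 10 control probe sets were left out of the tests.

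All probe sets were fitted by group with limma 3.58.1 (R 4.3.3; lmFit, then eBayes with a prior of 4.6 degrees of freedom and an SD of 0.103), two-sided, with Benjamini-Hochberg adjustment over all 41920. In simulated data, spreads were drawn from this prior, 200 probe sets were changed and no shift with level was built in. The share of changes recovered there was 1.49% at a size of 0.5, 83.3% at 1 and 98.0% at 1.5. Recovery depends on how many probe sets change, so it may differ in these arrays. The members and lists were chosen with earlier results of these data known, so counts over them are descriptions. Genes given with their values from the lists were those past the threshold, otherwise the 3 with the smallest p. Other settings were a replicate block, quantile and cyclic loess normalization, median centring, removal of the lower 40% by level, trend and robust moderation, 1 or averaged probe sets a gene, a threshold of 0.1 and leaving out each array. Promoter and microRNA sequences are from RefSeq.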

Additional observations from a re-analysis of the deposited data

Results flagged for a closer look

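Outside the tested probe sets, the 3′ control probe set of ACTB exceeded its 5′ counterpart by a mean of 0.486 log2 units on the miR-20a arrays, above the 0.272 of the miR-NT arrays. Groups of 2 arrays are too small for a check of single arrays that stand apart.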

How the results depend on the processing

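The number of calls over all probe sets, 57 as reported, depended on the settings (limma). It was 0 with a replicate block, 334 without the lower 40% by level, 957 with a trend and robust fit, 153 with a gene's probe sets averaged, 159 at a threshold of 0.1, and between 0 and 66 when 1 array was left out, being 0 without either miR-NT array and 16 without miR-20a replicate 1. Member calls, 2 as reported, were 0 with a replicate block, 0 after quantile and 0 after cyclic loess normalization, 4 without the lower 40%, 5 with a trend and robust fit, 1 with 1 probe set a gene, and 0 without any 1 array. At an unadjusted p under 0.05, between 6 and 9 member probe sets of 18 were counted in the fits over all probe sets, beside 7.71% to 18.7% of all probe sets in the same fits. Calls in the pathway lists, 1 as reported, were 0 with a replicate block, 4 without the lower 40%, 13 with a trend and robust fit, 2 at a threshold of 0.1, and between 0 and 1 when 1 array was left out. The cause was not tested.

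The replicate numbers were no evidence of pairing: deviations of same-numbered arrays correlated at -0.121. With the block LOX had a limma adjusted p of 0.358 by both of its called probe sets. The crossed pairing, added after seeing the data, gave 0 calls over all probe sets and 0 among members.

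The block, the threshold, the moderation and the choice of probe sets tested leave the estimates as they are. Of the 129 recomputed member changes whose estimate moved at all, 10 changed sign, all from changes of at most 0.13 log2 units. LOXL1 turned to -0.057 after quantile normalization and -0.050 after cyclic loess, and PLOD3 to -0.016 and -0.0033. LOXL2 202997_s_at turned to 0.032 after median centring. With 1 array left out, LOXL2 202997_s_at ranged from -0.060 to 0.057, LOXL2 228808_s_at from -0.019 to 0.037, LOXL4 1570219_at from -0.17 to 0.026 and LOXL4 227145_at from -0.048 to 0.28.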

Other observations

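DCN and LUM, proteoglycans that coat collagen fibrils, entered as fibroblast markers and had changes of opposite sign, neither past the threshold. DCN, decorin, stood at 8.72 and 8.57 log2 units in miR-NT cells and 8.04 and 8.14 in miR-20a cells by 211813_x_at. Its 5 probe sets had changes of -0.55, -0.49, -0.46, -0.21 and 0.015. LUM, lumican, stood at 9.43 and 9.81 against 10.24 and 10.12, a change of 0.56 ± 0.14 (SE). The limma adjusted p was 0.124 or more for DCN and 0.153 for LUM.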
